A study of Mus musculus with 28 samples.

Results

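The unfolded protein response genes and chaperones of the endoplasmic reticulum (ER) were described in mouse spleen across 12 groups of diet, lipopolysaccharide (LPS) challenge and genotype. The set held 38 genes of the 18193 genes that single-gene probe sets measured, each read from its probe set with the highest mean. The genes were chosen by name, as known parts of the pathway, with earlier results of these data known. They were placed in arms by convention, since many respond to both ATF6 and XBP1. They were 3 sensors, 7 genes of the ATF4 arm, 14 of the ATF6 arm, 13 of the IRE1 arm and Creb3l2, an ER-bound transcription factor placed in no arm.

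Total RNA of spleen was hybridised to 28 one-colour arrays in 2 experiments. One experiment, of wild-type mice only and here called the 12-array experiment, held 4 arrays with LPS on a diet supplemented with abscisic acid (ABA), 4 with LPS on the control diet, and 2 of each diet without LPS. The other, here called the 16-array experiment, held 2 arrays in each of 8 groups of null or wild-type mice, with or without LPS, on either diet. Null mice carried PPAR g flfl and MMTV-Cre+, and wild-type mice carried PPAR g flfl and MMTV-Cre-, so that both genotypes had the floxed Pparg gene. The recombinase of the null mice is driven by the MMTV promoter, and the labels call the deletion specific for epithelial and immune cells in one place and for spleen in another. Abscisic acid is a plant hormone, and LPS is a component of the bacterial outer membrane that activates Toll-like receptor signalling. The labels give no LPS dose, time after LPS or age, and nothing in them ties a replicate to an animal of its own. All p-values therefore reflect the spread among these samples, which may be technical.

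The 2 experiments had been normalised apart: their lowest values were 2.29 (12 arrays) and 2.24 (16 arrays), and 35.86% to 41.91% of probe sets stood at that value on an array. The lowest correlation of 2 arrays was 0.942 in the same experiment, while arrays of different experiments had 0.769 to 0.837. No level was therefore set across experiments. Pparg stood between 2.45 and 3.31 in null spleens and between 2.31 and 3.56 in wild-type spleens of the same experiment, close to the lowest value, so that its probe set gave no check of the deletion. B cell markers, read as a check of the spleen label, had summed levels of 12.42 to 15.05 on the log2 scale over all arrays. In the 16-array experiment 1 of the 8 was near the lowest value on all arrays of each genotype and challenge. Transcripts of the pancreatic enzyme Cpa1 were high on 4 arrays, and the female transcript Xist was high throughout the 12-array experiment and on 6 of the 16 others, 3 of them null and 3 wild-type. The wild-type ones were both control arrays with LPS and ABA replicate 1 without LPS. Among these wild-type spleens Xist therefore cannot be told apart from LPS on the control diet, or from diet with LPS. Levels from bulk tissue cannot tell fewer cells of a type from less RNA per cell.

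When unfolded proteins build up in the ER, cells lower the load on the organelle and raise its capacity to fold and degrade proteins. PERK (Eif2ak3) phosphorylates the translation factor eIF2, which lowers protein synthesis while the mRNA of ATF4 is translated more; other kinases that sense amino acid shortage, heme shortage or double-stranded RNA act on the same factor. ATF6 is cut in the Golgi and its freed part drives chaperone genes, and IRE1 (Ern1) splices the mRNA of XBP1, a factor that plasma cells need to secrete antibody. Arrays measure transcripts and not the cleavage, splicing or phosphorylation by which the sensors act.

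Promoters of some members carried elements through which these factors are known to act. The elements are shown because genes with an ERSE were called in either direction with LPS. RefSeq promoter windows (GRCm38.p6, 250 bases before to 50 after the start) were at hand for 33 of the 38 members, the others being Atf6, Derl1, Manf, Hyou1 and Sec61a1. The ER stress element ERSE, written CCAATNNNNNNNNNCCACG and searched on both strands, was in 6 of 12 ATF6 arm genes, 3 of 11 IRE1 arm genes and 0 of 7 ATF4 arm genes with a window, against 39 of 32851 windows (0.12%) of all genes. The 9 genes with it are listed with 10 bases on each side, 5′ to 3′ on the strand of the gene, and capitals mark the fixed letters of the element in either orientation. Hsp90b1 held a second match, 107 bases before the start.
Hspa5 (chr2:34772015-34772053, + strand): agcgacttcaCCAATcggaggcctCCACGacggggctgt
Pdia6 (chr12:17266481-17266519, + strand): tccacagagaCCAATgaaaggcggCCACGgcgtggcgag
Canx (chr11:50325790-50325828, - strand): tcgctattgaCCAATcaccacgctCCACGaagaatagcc
Creld2 (chr15:88819510-88819548, + strand): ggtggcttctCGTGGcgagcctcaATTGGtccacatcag
Calr (chr8:84847065-84847103, - strand): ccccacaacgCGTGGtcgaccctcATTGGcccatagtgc
Derl3 (chr10:75893232-75893270, + strand): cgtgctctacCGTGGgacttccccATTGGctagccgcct
Hsp90b1 (chr10:86705628-86705666, - strand): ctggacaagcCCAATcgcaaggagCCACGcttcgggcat
Syvn1 (chr19:6046522-6046560, + strand): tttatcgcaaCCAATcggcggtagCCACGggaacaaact
Dnajc3 (chr14:118937817-118937855, + strand): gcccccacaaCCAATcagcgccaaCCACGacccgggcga

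The promoter of Hspa5, which encodes the ER chaperone BiP, held the ERSE 65 bases before the start and the XBP1 and ATF6 core TGACGTG (UPRE core), in capitals 157 bases before it; that core was in 1 of 33 members and in 2.01% of all windows. ERSE-II (ATTGG and CCACG with any base between them, both strands) was in Herpud1 and Dnajb11, and in 0.04% of all windows. The short motif CCACG, which lies within ERSE and ERSE-II, was in 26 of 33 members and in 32.77% of all windows.
Hspa5 promoter (chr2:34771840-34772089, + strand): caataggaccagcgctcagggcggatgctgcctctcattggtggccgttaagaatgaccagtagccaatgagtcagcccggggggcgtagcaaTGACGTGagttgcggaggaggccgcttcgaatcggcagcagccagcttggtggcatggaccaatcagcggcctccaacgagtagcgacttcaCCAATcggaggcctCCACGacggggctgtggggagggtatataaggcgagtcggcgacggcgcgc

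A core of the element bound by ATF4 with C/EBP factors (CARE core, TGATGNAA, both strands) was in 4 of 7 ATF4 arm genes, namely Atf3, Chac1, Asns and Trib3, and in Herpud1, against 3.97% of all windows. The match in Trib3 began at base 15 of the transcript and is not shown. A match is a description of letters, not a site at which binding was measured.
Atf3 (chr1:191183426-191183453, - strand): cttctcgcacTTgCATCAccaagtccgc
Chac1 (chr2:119351039-119351066, + strand): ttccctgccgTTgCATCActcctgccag
Asns (chr6:7693215-7693242, - strand): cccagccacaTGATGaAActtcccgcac
Herpud1 (chr8:94386307-94386334, + strand): ccacggcgggTTgCATCAgcccgcaccc

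**Figure D1:**
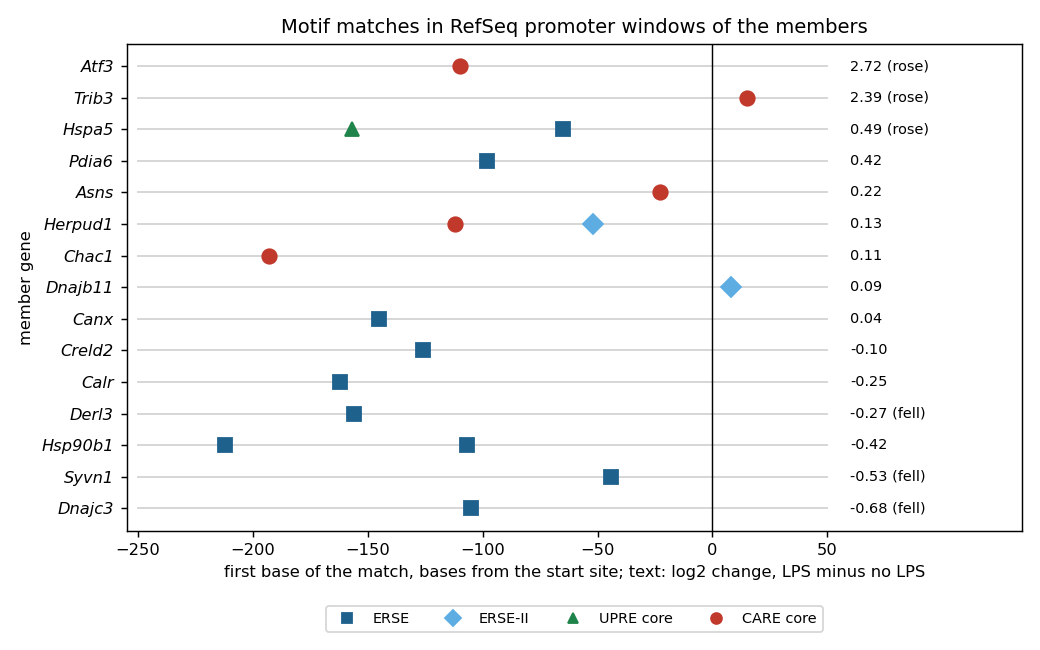
Motif matches in the promoter windows of the 15 members with a match; the x axis gives the first base of each match in bases from the start site, and the text at the right the log2 change with LPS in wild-type spleen, with the call. Genes with a square (ERSE) lie from 0.49 (Hspa5) to -0.68 (Dnajc3), and the genes with a circle (CARE core) from 2.72 (Atf3) to 0.11 (Chac1).

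LPS changed a part of the pathway in wild-type spleen, and in both directions. Over the 20 wild-type arrays, with diets averaged and experiment as a term, 6 of 38 members rose (Atf3, Trib3, Atf6, Selenos, Ddit3 and Hspa5) and 5 fell (Ppp1r15a, Sdf2l1, Dnajc3, Syvn1 and Derl3), at an adjusted p under 0.05 by limma with Benjamini-Hochberg adjustment over 13458 genes. The other 27 did not pass. The share called, 28.9%, stood beside 30.9% of all genes tested (16.7% rose and 14.1% fell), and the median change of the members was 0.09 beside -0.0007 over all genes. The share of members called was thus near that of all genes. Leaving out 1 array left 7 members called for each of 7 arrays: ABA with LPS replicate 3, control with LPS replicate 4 and both ABA arrays without LPS in the 12-array experiment, and control without LPS replicate 1 and both control arrays with LPS among the wild-type arrays of the other.

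By arm, 3 of 7 ATF4 arm genes rose and 1 fell, with a median log2 change of 0.47. Over all genes 16.7% rose and 14.1% fell, with a median of -0.0007. In the ATF6 arm 1 of 14 rose and 1 fell (median 0.03), and in the IRE1 arm 1 of 13 rose and 3 fell (median 0.09). Among the sensors 1 of 3 rose (median 0.01), and Creb3l2 did not pass, at -0.23. Of the 9 genes with an ERSE, 1 rose and 3 fell, with a median of -0.25, beside the same shares of all genes. Differences between arms were not tested, and counts of 7 to 14 genes are a description.

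**Figure D2:**
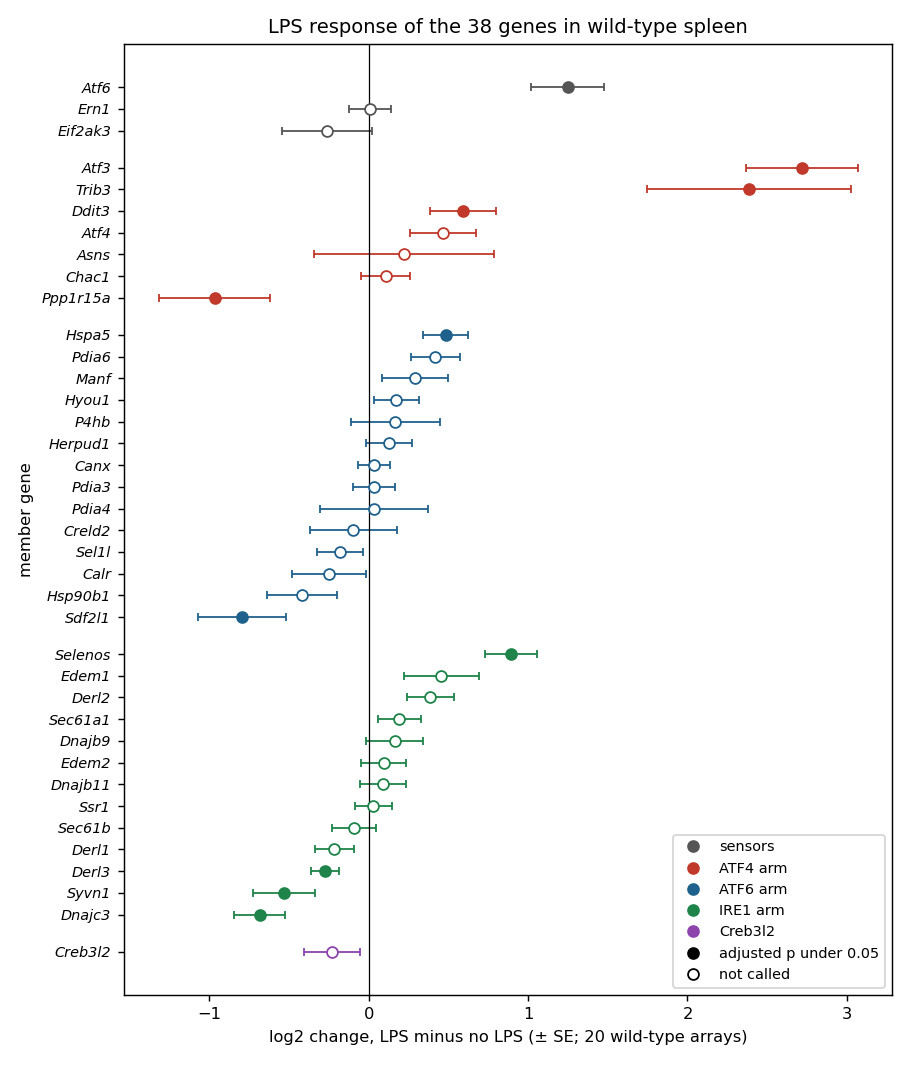
Log2 change with LPS (LPS minus no LPS, ± SE, 20 wild-type arrays) of each of the 38 members, ordered by arm; filled points passed an adjusted p of 0.05. Atf3 (2.72) and Trib3 (2.39) stand apart at the right, the ATF6 arm lies between 0.49 and -0.79, and Ppp1r15a (-0.97) is at the left end.

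Among the sensors, only Atf6 passed the test. In the 12-array experiment its log2 values were 7.12, 6.34, 7.90 and 7.01 with LPS on the ABA diet and 6.86, 6.91, 7.70 and 8.47 with LPS on the control diet, against 5.81 and 5.75 (ABA) and 6.51 and 5.89 (control) without LPS. In wild-type spleens of the other experiment they were 7.92 and 8.26 (ABA) and 8.43 and 9.01 (control) with LPS, against 6.96 and 7.71 (ABA) and 7.22 and 7.0 (control) without. Arrays with LPS lay above all arrays without it in the second experiment, and 1 of 8 lay within the range without LPS in the first. Atf6 rose by 1.25 ± 0.23 (SE), adjusted p = 0.00074, or 2.38-fold, and its other 2 probe sets had 0.47 and 0.83, both in the same direction.

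Eif2ak3, the gene of PERK, had values of 7.85, 7.51, 6.95 and 8.0 with LPS on the ABA diet and 6.39, 5.70, 6.72 and 6.32 with LPS on the control diet, against 5.51 and 7.48 (ABA) and 7.77 and 7.88 (control) without LPS. In wild-type spleens of the other experiment the values were 9.32 and 8.55 (ABA) and 9.04 and 8.83 (control) with LPS, against 8.76 and 9.74 (ABA) and 9.19 and 9.26 (control) without. Groups with and without LPS overlapped in both, and the change was -0.26 ± 0.28 (SE), adjusted p = 0.522. For Ern1, the gene of IRE1, the 12-array values were 6.72, 7.34, 7.08 and 7.33 with LPS on the ABA diet and 7.44, 7.28, 7.43 and 7.27 with LPS on the control diet, against 7.33 and 7.10 (ABA) and 7.35 and 7.42 (control) without LPS. Those of the other experiment were 7.54 and 8.07 (ABA) and 7.50 and 7.83 (control) with LPS, against 6.78 and 7.67 (ABA) and 8.10 and 7.95 (control) without. Ern1 also overlapped, with a change of 0.01 ± 0.13 (SE), adjusted p = 0.986.

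In the ATF4 arm, Atf3, a stress-induced repressor of inflammatory genes, moved most. Its 12-array values were 6.22, 7.60, 5.72 and 4.74 with LPS on the ABA diet and 7.49, 7.34, 7.83 and 7.81 with LPS on the control diet, against 4.08 and 4.20 (ABA) and 4.20 and 4.20 (control) without LPS. In the other experiment wild-type values were 4.73 and 7.39 (ABA) and 6.19 and 7.12 (control) with LPS, against 3.57 and 3.61 (ABA) and 3.57 and 3.57 (control) without. Every array with LPS was above every array without it, in both experiments, while arrays with LPS spread over about 3 log2 units. Atf3 rose by 2.72 ± 0.35 (SE), adjusted p = 2.62e-05, or 6.57-fold.

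Trib3, a pseudokinase induced downstream of ATF4 and CHOP, had values of 7.20, 11.10, 7.73 and 6.88 with LPS on the ABA diet and 7.07, 7.38, 7.57 and 9.96 with LPS on the control diet, against 5.51 and 5.72 (ABA) and 5.55 and 5.60 (control) without LPS. In the other experiment wild-type values were 5.45 and 8.33 (ABA) and 8.02 and 8.37 (control) with LPS, against 7.27 and 3.43 (ABA) and 5.45 and 5.20 (control) without. LPS arrays did not overlap those without LPS in the 12-array experiment, where 1 ABA array (11.10) and 1 control array (9.96) stood high, and overlapped in the other. Trib3 rose by 2.39 ± 0.64 (SE), adjusted p = 0.0097, or 5.22-fold, and its second probe set had 0.98.

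Ddit3 encodes CHOP, a factor that drives cell death genes in prolonged ER stress. It stood at 8.41, 9.41, 8.70 and 8.10 with LPS on the ABA diet and 8.38, 8.41, 8.38 and 9.10 with LPS on the control diet, against 8.36 and 8.01 (ABA) and 8.19 and 8.22 (control) without LPS. Wild-type values in the other experiment were 7.71 and 8.88 (ABA) and 8.34 and 8.43 (control) with LPS, against 7.86 and 6.92 (ABA) and 7.18 and 8.08 (control) without. Groups overlapped in both experiments, and Ddit3 rose by 0.59 ± 0.21 (SE), adjusted p = 0.0403. Ddit3 kept its call in 13 of 33 alternative settings, and within neither experiment alone (0.42, adjusted p = 0.244, and 0.83, adjusted p = 0.280). Its second probe set, near the lowest value, had 0.19.

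Atf4 itself, measured at 13.53, 13.95, 13.17 and 13.35 with LPS on the ABA diet and 13.75, 13.43, 13.16 and 13.44 with LPS on the control diet, against 13.67 and 13.41 (ABA) and 13.07 and 13.46 (control) without LPS, did not separate by challenge in the 12-array experiment. Wild-type values of the other experiment were 11.31 and 11.81 (ABA) and 11.34 and 12.05 (control) with LPS, against 11.41 and 10.68 (ABA) and 9.59 and 10.85 (control) without. Groups overlapped in both experiments, and the change was 0.47 ± 0.21 (SE), adjusted p = 0.104. The missed call depends on the probe set: the second, also bright at a mean of 11.25, had 0.72 (SE 0.16, unadjusted p = 0.00045 by limma, n = 20 arrays), while that of the first was 0.042.

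Ppp1r15a encodes GADD34, which recruits the phosphatase that reverses eIF2 phosphorylation. In the 12-array experiment it was near the lowest value, at 2.64 on 11 of 12 arrays and 4.08 on 1 ABA array without LPS. Wild-type values in the other experiment were 7.66 and 8.78 (ABA) and 8.36 and 8.69 (control) with LPS, against 11.44 and 8.54 (ABA) and 10.63 and 9.99 (control) without. Ppp1r15a fell by 0.97 on the log2 scale (SE 0.35, adjusted p = 0.0465), a call that rests on the 16-array experiment, where the groups overlapped, and that was kept in 10 of 33 alternative settings. Asns, asparagine synthetase (0.22, adjusted p = 0.813), and Chac1, a glutathione-degrading enzyme (0.11, adjusted p = 0.636), did not pass; Chac1 was near the lowest value on 10 of 12 and 12 of 16 arrays of the experiments.

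In the ATF6 arm, Hspa5 rose. Its 12-array values were 13.15, 13.0, 12.99 and 12.88 with LPS on the ABA diet and 13.16, 13.31, 13.12 and 13.24 with LPS on the control diet, against 12.30 and 13.11 (ABA) and 12.97 and 13.14 (control) without LPS. In the other experiment wild-type values were 13.44 and 13.54 (ABA) and 13.53 and 13.52 (control) with LPS, against 12.92 and 13.18 (ABA) and 12.24 and 12.39 (control) without. Arrays with LPS lay above all others in the 16-array experiment and overlapped in the 12-array experiment. Hspa5 rose by 0.49 ± 0.14 (SE), adjusted p = 0.0158, or 1.4-fold. Its second probe set had 0.49. The remaining one, with a mean of 9.33, had -0.05 (SE 0.21, unadjusted p = 0.82 by limma, n = 20 arrays) and did not show the rise. Within the 12-array experiment alone the change was 0.23 (adjusted p = 0.236), and within the other 0.82 (adjusted p = 0.0119).

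Sdf2l1, a partner of BiP in the folding of secreted proteins, went the other way. It had values of 6.85, 6.03, 6.22 and 5.63 with LPS on the ABA diet and 6.98, 6.62, 5.98 and 5.39 with LPS on the control diet, against 6.62 and 7.49 (ABA) and 7.31 and 7.55 (control) without LPS. Wild-type values in the other experiment were 6.43 and 7.88 (ABA) and 6.65 and 6.89 (control) with LPS, against 6.95 and 7.30 (ABA) and 6.95 and 8.53 (control) without. Ranges overlapped in both, and Sdf2l1 fell by 0.79 on the log2 scale (SE 0.28, adjusted p = 0.0395), a call kept in 12 of 33 alternative settings. The other 12 genes of the arm did not pass. Pdia6, a protein disulfide isomerase, was closest at 0.42 ± 0.15 (SE), adjusted p = 0.0504. The oxidoreductases Pdia3 (0.03), Pdia4 (0.03) and P4hb (0.17), the lectin chaperones Canx (0.04) and Calr (-0.25), the HSP90 homologue Hsp90b1 (-0.42), the nucleotide exchange factor Hyou1 (0.18), and Creld2 (-0.10), Manf (0.29), Herpud1 (0.13) and Sel1l (-0.18) had adjusted p between 0.165 and 0.974. Herpud1 and Sel1l belong to the degradation machinery.

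In the IRE1 arm, Selenos rose. It encodes an ER membrane selenoprotein of the retrotranslocation complex. Its 12-array values were 10.48, 10.24, 10.42 and 10.18 with LPS on the ABA diet and 10.47, 10.53, 10.22 and 10.28 with LPS on the control diet, against 9.01 and 9.86 (ABA) and 9.98 and 10.08 (control) without LPS. In the other experiment wild-type values were 11.02 and 11.09 (ABA) and 11.07 and 11.20 (control) with LPS, against 9.55 and 10.51 (ABA) and 9.52 and 9.76 (control) without. Arrays with LPS lay above all arrays without it in both experiments. Selenos rose by 0.90 ± 0.16 (SE), adjusted p = 0.000629, or 1.86-fold, its other 2 probe sets had 0.55 and 1.39, and it kept its call in all 33 alternative settings.

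Dnajc3, a co-chaperone of BiP known as p58IPK that also inhibits PERK and PKR, was lower with LPS. Values were 9.52, 9.10, 8.94 and 9.08 with LPS on the ABA diet and 9.79, 9.34, 9.44 and 8.82 with LPS on the control diet, against 9.73 and 10.12 (ABA) and 10.18 and 10.24 (control) without LPS. In the other experiment wild-type values were 9.59 and 8.78 (ABA) and 9.03 and 8.87 (control) with LPS, against 9.68 and 10.10 (ABA) and 9.21 and 9.29 (control) without. Ranges met in both, in the 12-array experiment through 1 control array with LPS (9.79). Dnajc3 fell by 0.68 on the log2 scale (SE 0.16, adjusted p = 0.00376). Its 5 probe sets disagreed in size, since the second had 0.04 and the fifth -0.72.

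Syvn1, the gene of the ubiquitin ligase HRD1 of ER-associated degradation, had values of 9.28, 9.02, 8.29 and 7.89 with LPS on the ABA diet and 8.68, 7.98, 7.95 and 7.58 with LPS on the control diet, against 8.70 and 9.27 (ABA) and 8.72 and 9.27 (control) without LPS. In the other experiment, wild-type spleens had 9.37 and 9.68 (ABA) and 8.74 and 8.95 (control) with LPS, against 8.87 and 9.47 (ABA) and 9.95 and 9.92 (control) without. Groups overlapped in both, and Syvn1 fell by 0.53 on the log2 scale (SE 0.20, adjusted p = 0.0495), which was lost in 24 of 33 alternative settings, and its second probe set had -0.17. Derl3, a derlin of the retrotranslocation channel, was near the lowest value at 2.58, 2.36, 2.42 and 2.35 with LPS on the ABA diet and 2.37, 2.35, 2.37 and 2.29 with LPS on the control diet, against 3.0 and 3.27 (ABA) and 2.35 and 2.51 (control) without LPS. Wild-type spleens of the other experiment had 3.05 and 3.05 (ABA) and 3.05 and 3.11 (control) with LPS, against 3.05 and 3.19 (ABA) and 3.40 and 3.05 (control) without. Derl3 fell by 0.27 on the log2 scale (SE 0.09, adjusted p = 0.0309).

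Dnajb9, the co-chaperone ERdj4 that is a direct target of XBP1, did not pass: its values were 10.83, 10.34, 10.44 and 10.10 with LPS on the ABA diet and 10.89, 10.68, 10.74 and 10.65 with LPS on the control diet, against 9.62 and 10.86 (ABA) and 10.56 and 11.03 (control) without LPS. Wild-type values in the other experiment were 10.22 and 9.78 (ABA) and 9.96 and 9.86 (control) with LPS, against 9.29 and 10.22 (ABA) and 9.86 and 9.29 (control) without. Its groups overlapped, and the change was 0.16 ± 0.18 (SE), adjusted p = 0.517. Of the other 8 genes of the arm, Derl2 was closest at 0.39 ± 0.15 (SE), adjusted p = 0.0601, and Edem1, a mannosidase-like protein of degradation, had 0.46. Dnajb11 (0.09), Edem2 (0.10), Derl1 (-0.22), and the translocon genes Sec61a1 (0.19), Sec61b (-0.09) and Ssr1 (0.03) had adjusted p of 0.199 or more.

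Some markers of other cell types were called with LPS in the same comparison, and their part in these changes was not tested. Beside them, 16.7% of all genes rose and 14.1% fell. All 8 erythroid markers fell, with a median log2 change of -4.55; their summed level was 8.70 to 12.56 with LPS and 11.40 to 15.58 without it in the 12-array experiment. Of 7 plasma cell markers tested 2 rose and 1 fell, with summed levels of 13.04 to 13.88 with LPS and 14.01 to 14.39 without it in the 12-array experiment, and of 14.57 to 15.31 with LPS and 14.28 to 15.65 without it in wild-type spleens of the other. Prdm1 (1.53) and Irf4 (1.31) rose and Ell2 (-0.62) fell, and 1 marker of the list of 8 with a probe set was near the lowest value in every group. Among macrophage markers 1 rose and 4 fell of 9, among neutrophil markers 1 rose and 1 fell of 9, and 3 of 7 T cell, 3 of 8 B cell and 1 of 4 pancreatic markers fell. Macrophage markers summed to 13.01 to 13.82 with LPS and 14.19 to 14.72 without it in the 12-array experiment. Without the arrays with pancreatic transcripts, 10 members were called.

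**Figure D3:**
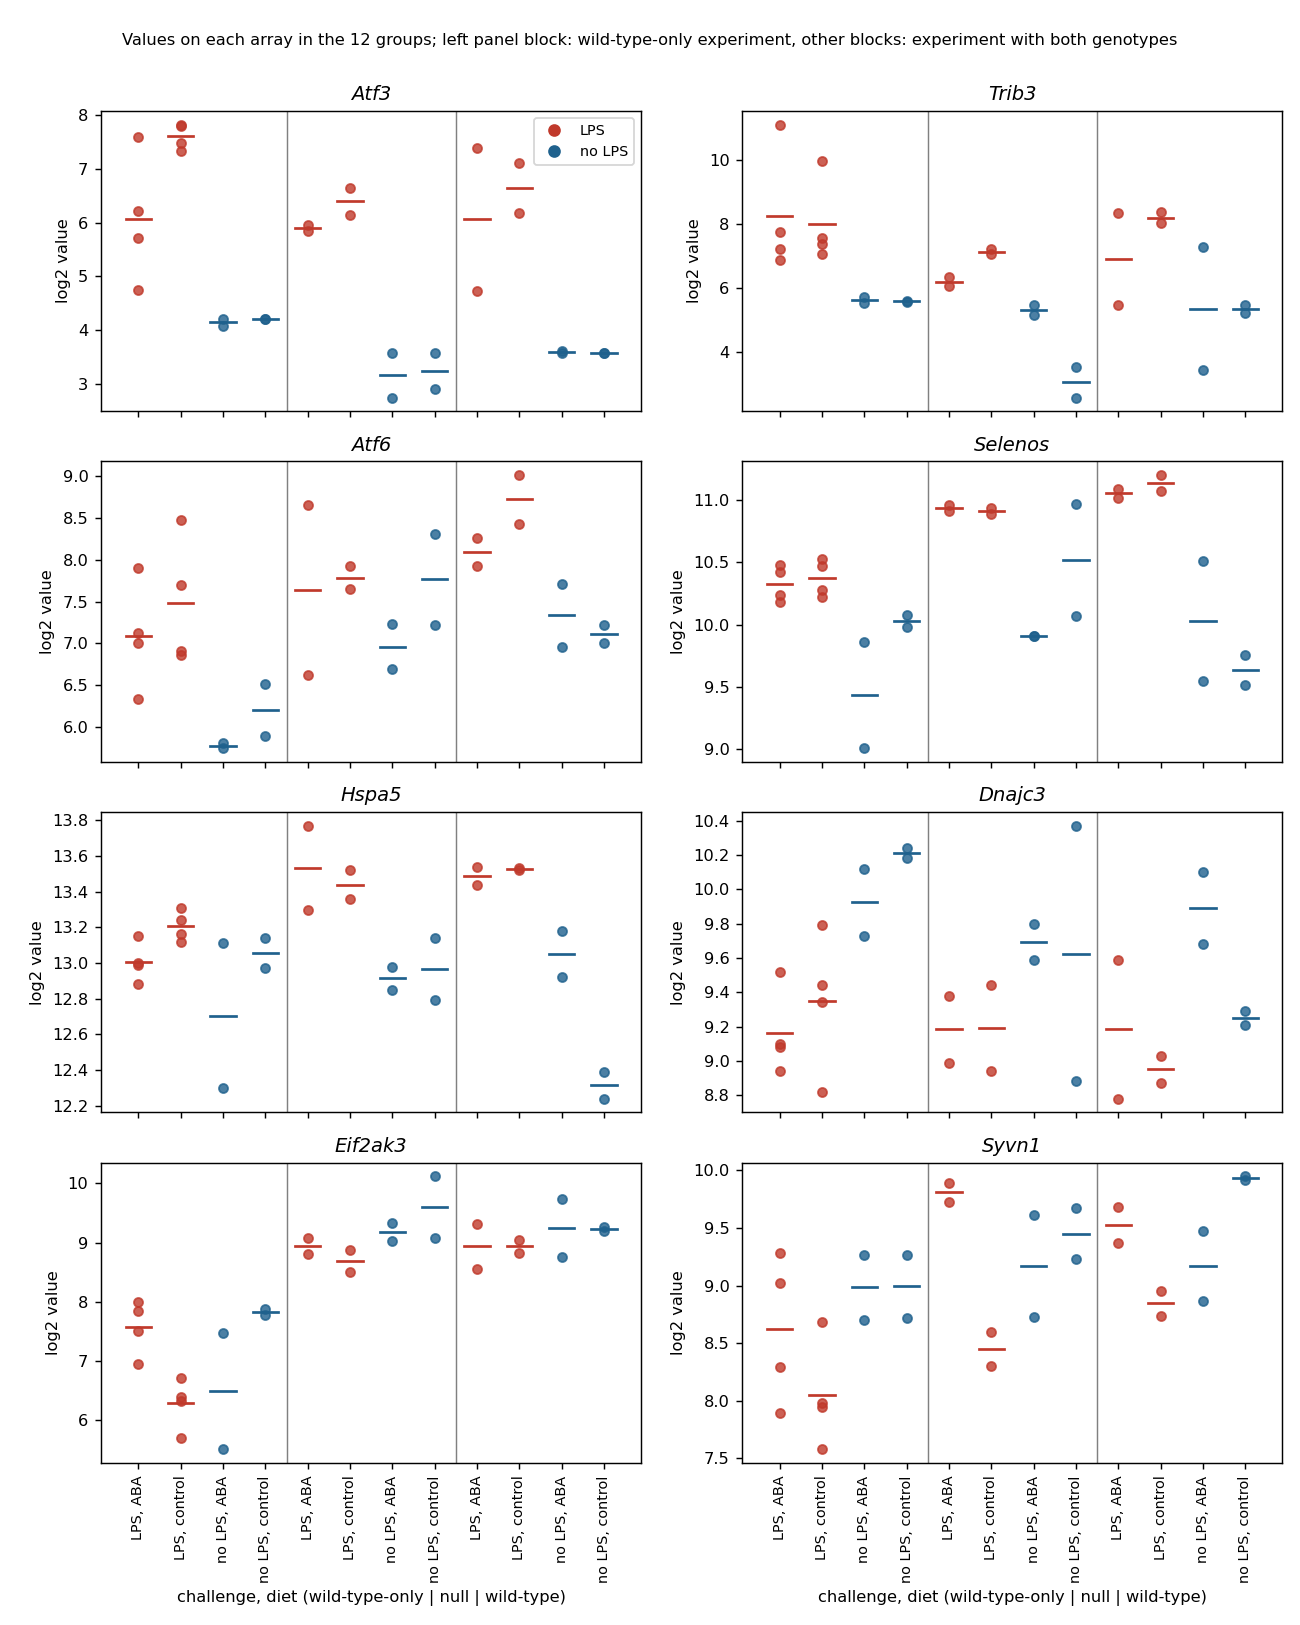
Log2 values on each array for 8 members in the 12 groups, with LPS in red and no LPS in blue; points are arrays, bars are group means, and grey lines divide the 12-array experiment, null mice and wild-type mice of the other experiment. Atf3 with LPS is above 4.7 in each group and at or below 4.20 without it, Dnajc3 runs lower with LPS in most groups, and Eif2ak3 with LPS in the 12-array experiment divides by diet.

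Of 78 other genes of the pathway tested beside the members, 27 rose and 6 fell with LPS in wild-type spleen, beside 16.7% of all genes that rose and 14.1% that fell. Of the ATF4-responsive amino acid and stress genes 11 of 15 rose and 0 fell, with a median log2 change of 1.31, beside the same 16.7% and 14.1% of all genes and their median of -0.0007. The list was put together with earlier results of these data known. Its members are targets of ATF4 in amino acid supply and stress, and many have other inducers. They included Wars, a tryptophanyl-tRNA synthetase also known as an interferon-induced gene (2.87 ± 0.24 (SE), adjusted p = 2.19e-07), and the serine and one-carbon metabolism genes Psat1 (2.38), Phgdh (1.92) and Shmt2 (2.18). Aars (1.74), Gars (1.31), Mthfd2 (1.36), Slc7a11 (1.06), Ddit4 (0.91), Slc3a2 (0.54) and Stc2 (0.36) also rose. Cth (0.59), Slc7a5 (1.51), Vldlr (0.10) and Sesn2 (0.03) did not pass. Within the 16-array experiment alone, fitted on its 8 wild-type arrays, Wars alone was called.

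Of 19 transcription factors, kinases and proteases tested, 7 rose and 1 fell, beside 16.7% and 14.1% of all genes. Cebpb, a C/EBP factor of inflammation, had values of 10.63, 11.60, 10.43 and 10.40 with LPS on the ABA diet and 10.77, 10.42, 10.65 and 10.69 with LPS on the control diet, against 8.43 and 7.44 (ABA) and 7.66 and 8.33 (control) without LPS, in the 12-array experiment. It rose by 2.81 ± 0.19 (SE), adjusted p = 1.68e-08, and groups did not overlap in either experiment. Nupr1, a stress-induced chromatin protein, rose by 2.67 ± 0.17 (SE), adjusted p = 9.97e-09, and the proapoptotic Bcl2l11 by 1.36 ± 0.12 (SE), adjusted p = 6.55e-07. Eif2ak2, the double-stranded RNA kinase PKR, rose by 1.06 ± 0.15 (SE), adjusted p = 6.99e-05, while Eif2ak1, the heme-regulated kinase of red cell precursors, fell by 1.39 on the log2 scale (SE 0.42, adjusted p = 0.0205), beside the erythroid markers that fell. Atf5 (1.22), Ppp1r15b (0.52) and Traf2 (0.49) rose as well. Xbp1, the target of IRE1, had values of 10.11, 9.64, 9.46 and 9.18 with LPS on the ABA diet and 9.87, 9.71, 8.90 and 8.86 with LPS on the control diet, against 9.10 and 9.66 (ABA) and 9.39 and 9.76 (control) without LPS, in the 12-array experiment. Those of the other experiment were 12.88 and 12.52 (ABA) and 12.11 and 12.48 (control) with LPS, against 11.41 and 12.69 (ABA) and 11.79 and 11.99 (control) without. Groups overlapped in both and Xbp1 did not pass, at 0.22 ± 0.20 (SE), adjusted p = 0.428.

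Of 33 folding, translocon and export genes 6 rose and 5 fell, near the shares over all genes (16.7% rose and 14.1% fell). Sec23b, a coat protein of ER export, rose by 0.57 ± 0.09 (SE), adjusted p = 0.000248. Pdia5, a disulfide isomerase, fell by 0.75 on the log2 scale (SE 0.15, adjusted p = 0.00172). Its arrays with LPS were below all others in both experiments, at 2.29 to 2.31 and so near the lowest value in the first, and at 5.32 to 5.82 in wild-type spleens of the second, where arrays without LPS had 6.29 to 7.33. Erp29 (-0.67), Ero1b (-0.49), Fkbp2 (-0.47) and Sec62 (-0.42) also fell, while the translocation genes Ssr2 (0.59), Serp1 (0.56) and Srprb (0.28), with Tmed10 (0.40) and Dnajc1 (0.34), rose. Of 11 degradation genes Tmbim6 (0.73), Ufd1 (0.46) and Vcp (0.45), the segregase that extracts proteins from the ER, rose and 0 fell, beside 16.7% and 14.1% of all genes.

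**Figure D4:**
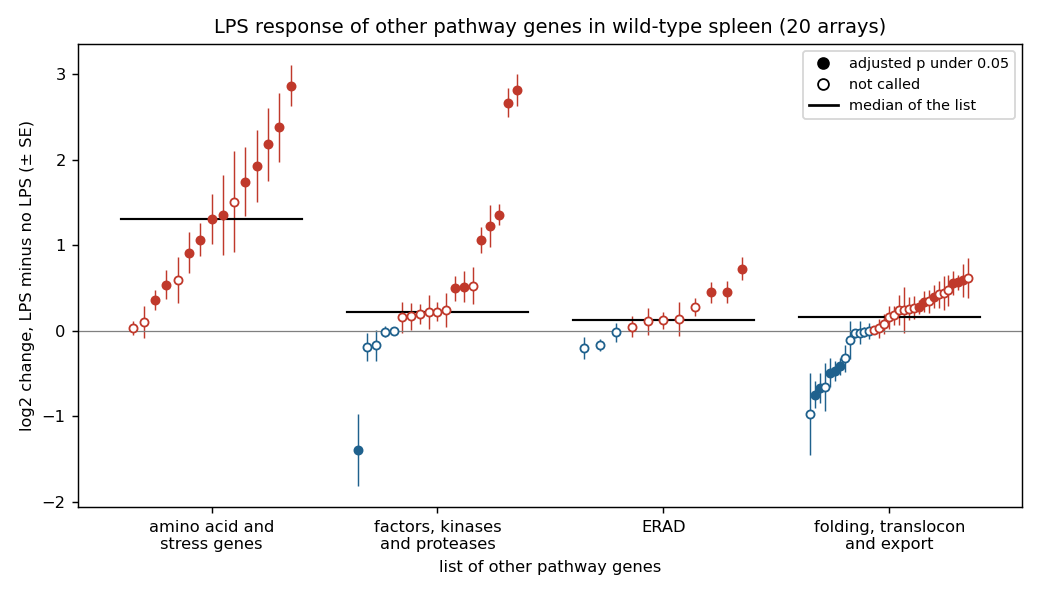
Log2 change with LPS (± SE, 20 wild-type arrays) of the other pathway genes in 4 lists; filled points passed an adjusted p of 0.05 and bars are list medians. The amino acid and stress genes have a median of 1.31, above those of the other lists, which lie between 0.12 and 0.22, and the folding list spreads from -0.97 to 0.61.

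Few members passed in the 16-array experiment. In null spleen 2 of 38 rose and 0 fell, beside 7.40% of all 13377 genes tested that were called (3.95% rose and 3.45% fell). In wild-type spleen of the same fit 3 rose and 0 fell, beside 14.0% of all genes (8.55% rose and 5.49% fell). An unadjusted p under 0.05 was met by 9 of 38 members in null and 11 of 38 in wild-type spleen, beside 22.2% and 27.4% of all genes, so that these counts were near the background. Atf3 in null spleen was 5.95 and 5.85 (ABA) and 6.15 and 6.65 (control) with LPS, against 2.74 and 3.57 (ABA) and 2.90 and 3.57 (control) without. It rose by 2.96 ± 0.51 (SE), adjusted p = 0.0101, in null spleen and by 2.78 ± 0.51 (SE), adjusted p = 0.00917, in wild-type spleen.

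Hspa5 in null spleen was 13.77 and 13.30 (ABA) and 13.36 and 13.52 (control) with LPS, against 12.85 and 12.98 (ABA) and 13.14 and 12.79 (control) without. It rose by 0.55 ± 0.12 (SE), adjusted p = 0.0274, in null spleen and by 0.82 ± 0.12 (SE), adjusted p = 0.00297, in wild-type spleen. Selenos in null spleen was 10.91 and 10.96 (ABA) and 10.89 and 10.94 (control) with LPS, against 9.91 and 9.91 (ABA) and 10.97 and 10.07 (control) without. Its change was 0.71 ± 0.23 (SE), adjusted p = 0.0974, in null spleen and 1.26 ± 0.23 (SE), adjusted p = 0.00821, in wild-type spleen. The null no LPS value of 10.97 for Selenos overlapped the arrays with LPS, while arrays with LPS were above all others in 6 of 38 null members (Atf3, Atf4, Trib3, Hspa5, Hyou1 and Sec61a1) and in 4 of 38 wild-type members of that experiment (Atf3, Atf6, Hspa5 and Selenos). Over the 13377 genes tested, the arrays with LPS were above all others in 6.50% of genes in null and 9.47% in wild-type spleen, and below all others in 6.97% and 7.96%, against 0 members below in either genotype. In wild-type spleen the members' 4 of 38 was thus near the share of all genes. Of the null arrays, 2 without LPS carried pancreatic transcripts. Hspa5 in null spleen kept its call in 16 of 27 alternative settings, and Atf3 in all 27. Hspa5 lost it without any of 8 arrays: null ABA without LPS replicates 1 and 2, null ABA with LPS replicate 1, null control without LPS replicate 2, both null control arrays with LPS and both wild-type control arrays with LPS. Without either wild-type ABA array without LPS, 4 members rose in null spleen (Atf3, Trib3, Hspa5 and Selenos). Without replicate 2 of that group, 5 were called in wild-type spleen, Pdia6 and Sec61a1 among them.

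By arm, the median change in null spleen was 0.64 for ATF4, 0.09 for ATF6 and 0.12 for IRE1, beside -0.01 over all genes, and in wild-type spleen of the same fit 0.83, 0.17 and 0.12, beside 0.00 over all genes. The mean level of the 7 ATF4 arm genes was 7.51 to 7.83 with LPS and 5.71 to 7.36 without it in null spleen, and 6.83 to 8.38 with LPS and 6.39 to 8.17 without it in wild-type spleen. These means did not overlap in null spleen and overlapped in wild-type spleen. They also overlapped in the 12-array experiment, at 6.31 to 7.94 with LPS and 5.86 to 6.61 without it. The means of the ATF6 and IRE1 arms overlapped in null spleen. How often means of 7 genes separate in this way was not counted, and the genotypes were not compared by them. Erythroid markers summed to 13.09 to 14.77 with LPS and 11.80 to 16.40 without it in null spleen, with 0 of 8 called by limma, and to 10.63 to 12.44 with LPS and 14.23 to 16.59 without it in wild-type spleen, where 7 of 8 fell. Neutrophil markers summed to 14.82 to 15.79 with LPS and 12.65 to 14.19 without it in null spleen, and to 15.20 to 16.18 with LPS and 12.49 to 14.62 without it in wild-type spleen. Of all genes, 7.40% were called in null spleen and 5.49% fell in wild-type spleen. The part of these cells in the changes was not tested.

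Of 77 other pathway genes tested in this experiment, 7 rose and 3 fell in null spleen, and 13 rose and 2 fell in wild-type spleen, beside 3.95% and 3.45% of all genes in null and 8.55% and 5.49% in wild-type spleen. Wars in null spleen was 10.10 and 9.87 (ABA) and 9.78 and 10.21 (control) with LPS, against 7.0 and 6.28 (ABA) and 7.14 and 7.52 (control) without. It rose by 3.00 ± 0.23 (SE), adjusted p = 0.000153, and was above all arrays without LPS. Cebpb (2.60), Nupr1 (2.04), Eif2ak2 (1.11), Bcl2l11 (1.07), Slc7a11 (1.02) and Sec23b (0.45) also rose in null spleen, and Pdia5 (-1.60), Erp29 (-0.89) and Sec62 (-0.52) fell. Of the amino acid and stress genes 2 of 14 rose in null spleen and 5 of 14 in wild-type spleen, a difference that was not tested. Leaving out 1 array gave 1 to 3 in null spleen and 1 to 5 in wild-type spleen, and Wars alone was left in wild-type spleen without ABA replicate 1 or control replicate 1 of the arrays without LPS.

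No member passed a test of the genotype itself. The LPS by genotype interaction called 0 of 38 members with limma, beside 0.0299% of all genes, and 0 had an unadjusted p under 0.05, beside 4.46% of all genes. The smallest p-values were those of Selenos (-0.55, adjusted p = 0.943), Ern1 (-0.79, adjusted p = 0.943) and Derl3 (0.23, adjusted p = 0.943). Null against wild-type spleen with LPS called 0 members, beside 0.0299% of all genes, with 0 at an unadjusted p under 0.05 (4.52% of all genes), and Atf6 had -0.69 (adjusted p = 1), Pdia3 -0.27 (adjusted p = 1) and Ern1 -0.45 (adjusted p = 1). Without LPS 0 members were called, beside 0.00748% of all genes, with 0 at an unadjusted p under 0.05 (2.12% of all genes), and Hspa5 had 0.26 (adjusted p = 1), Selenos 0.38 (adjusted p = 1) and Chac1 -0.35 (adjusted p = 1). Groups of 2 arrays limit these tests, and missing the threshold does not show that genotypes act alike.

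**Figure D5:**
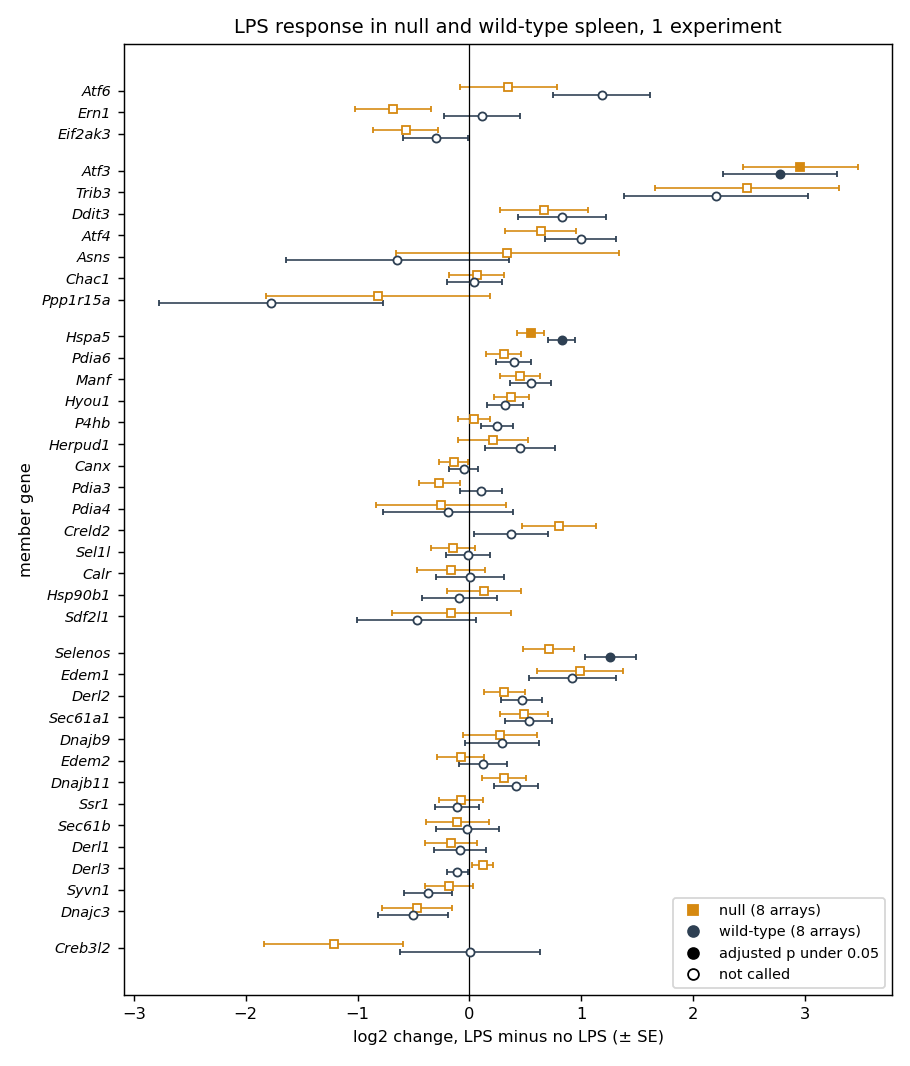
Log2 change with LPS (± SE) of each member in null (squares) and wild-type spleen (circles) of the same experiment, 8 arrays each; filled points passed an adjusted p of 0.05. Atf3 and Hspa5 are filled in both genotypes and Selenos in wild-type alone, and the bars of most members overlap.

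The ABA diet called no member in any comparison. In wild-type spleen with LPS 0 of 38 passed, beside 0.0149% of all genes, with 5 members at an unadjusted p under 0.05, beside 684 of 13458 genes (5.08%). ABA against control diet gave Atf3 -1.23 (adjusted p = 0.91), Canx -0.31 (adjusted p = 0.944) and Syvn1 0.61 (adjusted p = 0.944). In the 12-array experiment 3 of 4 ABA arrays with LPS had Atf3 below all 4 control arrays with LPS, the other having 7.60. Without LPS 0 passed, beside 0.00743% of all genes, with 3 members (Ern1 -0.49, Edem2 -0.53 and Derl3 0.30) and 788 genes (5.86%) at an unadjusted p under 0.05.

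The diet by LPS interaction called 0 members, beside 0% of all genes, with 3 members and 561 genes (4.17%) at an unadjusted p under 0.05. Those members were Eif2ak3 (1.52), Syvn1 (1.00) and Edem2 (0.64), with adjusted p of 0.956 each. For Eif2ak3 the ABA arrays with LPS of the 12-array experiment lay at 6.95 to 8.0 and the control arrays with LPS at 5.70 to 6.72. These did not overlap, while in the other experiment they overlapped. How many of all genes separated by diet in this way was not counted.

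In null spleen with LPS, ABA against control diet called 0 members, beside 0.0972% of all genes, with 4 members and 1061 genes (7.93%) at an unadjusted p under 0.05. Syvn1 was 9.89 and 9.73 on the ABA diet, against 8.30 and 8.60 on the control diet (1.36, adjusted p = 0.195). Ern1 was 8.12 and 8.19 on the ABA diet, against 6.49 and 6.32 on the control diet (1.75, adjusted p = 0.301), and Pdia3 had -0.68. Groups of 2 arrays did not overlap in Syvn1 or Ern1, and neither gene passed. Both were shown for their small p, and the share of all genes separated in this way was not counted. Without LPS 0 passed, beside 0.179% of all genes, with 1 member and 942 genes (7.04%) at an unadjusted p under 0.05. Dnajb11 was 7.84 and 7.66 on the ABA diet, against 8.91 and 9.14 on the control diet (-1.28, adjusted p = 0.177), while Edem2 (-0.61) and Trib3 (2.26) followed by size of p.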

How the data were processed

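Expression was measured on one-colour arrays of 28 spleen samples in 12 groups. The table the authors deposited holds log2 values per probe set. GCRMA and limma are named in the submitters' processing notes, with no role or version given there; the log2 scale and the separate normalisation of the experiments were read from the values. Of 45101 probe sets, 34945 named 1 gene, 932 several and 9224 none; for each gene the probe set with the highest mean was used. A gene was tested if its value passed the 40th percentile of all probe sets on at least as many arrays as the smallest group of genotype, diet and challenge in the fit (13458 in the 20-array fit, 13377 in the 16-array fit). In the 12-array experiment 40.13% to 41.91% of probe sets on an array stood at the lowest value. That percentile was therefore the lowest value there, and any value above it passed. Tests used limma 3.58.1 in R 4.3.3 (lmFit, eBayes, Benjamini-Hochberg over all genes, threshold 0.05), with 15 and 8 residual degrees of freedom and experiment as a term in the first. Alternatives were another filter or none, median centring, quantile normalisation, a trended prior variance, the mean of probe sets, array weights, a replicate block, 1 fit of all arrays, a term for high Xist, each experiment alone, no arrays with pancreatic transcripts, and each array left out. The fits were tried first on simulated data with known answers. Precision is limited by how few arrays a group has.

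The member genes and gene lists were chosen with earlier results of these data known. Values are printed for every member called for LPS in wild-type mice, the sensors, Atf4, Ddit3, Hspa5 and Dnajb9; elsewhere for members called or the 3 with the smallest p, and other members by change. Of the other pathway genes, those called in wild-type mice over 20 arrays and Xbp1 are named, most by change alone. Promoter windows, GRCm38.p6, are from RefSeq.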

Additional observations from a re-analysis of the deposited data

Results flagged for a closer look

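Within the 12-array experiment 76 sets of 4 arrays were examined for a value far from the others, and chance gives about 1 in 20. That rate does not apply to sets near the lowest value, such as those of Chac1 and Ppp1r15a. Sets that share arrays are also not independent, and the count found was not tested against the rate. In that experiment 8 values stood far from the other 3 arrays of their group. On 1 array, replicate 2 of the ABA diet with LPS, 4 such values were found: Calr at 8.97 (others 10.36 to 10.43), Sel1l at 7.39 (others 8.27 to 8.36), Derl1 at 12.27 (others 11.48 to 11.51) and Chac1 at 2.80 (others 2.29 to 2.31). That array also had the highest Trib3 value, 11.10. On replicate 4 of the control diet with LPS, Ddit3 was 9.10 (others 8.38 to 8.41), Chac1 was 3.01 (others at 2.29) and Pdia4 was 9.44 (others 10.50 to 10.67). Ppp1r15a on replicate 1 of the ABA diet with LPS differed from the other arrays by less than the second decimal, at 2.64, near the lowest value. What made these values differ was not tested.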

How the results depend on the processing

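Precision was limited by 2 to 4 arrays in a group and by values near the lowest of the scale (Derl3 and Ppp1r15a in the 12-array experiment, and Chac1 in both). For LPS in wild-type mice, 11 members were called. The count was 7 without a filter on low values, 6 within the 12-array experiment and 2 within the 16-array experiment. It was 7 with the replicate block, and 7 to 11 when single arrays were left out. Whether replicate numbers paired samples was not settled. Deviations of same-numbered arrays correlated at a median of 0.048 in the 12-array experiment, with a range of -0.150 to 0.384. In the 16-array experiment the median was 0.023, with a range of -0.710 to 0.505. Selenos kept its call in all 33 alternatives, Atf3 and Atf6 in 32, Trib3 and Dnajc3 in 31, Hspa5 in 30 and Derl3 in 26 of 32. Syvn1 kept it in 9, Ppp1r15a in 10, Sdf2l1 in 12 and Ddit3 in 13 of 33. None of these 11 members changed sign. In wild-type mice of the 16-array experiment 3 members were called, and 3 to 5 with single arrays left out. The 1 fit of all arrays pooled the wild-type arrays of both experiments, so that its count of 10 is not one for the 16-array experiment. In null mice 2 were called, 1 with a filter at the 60th percentile (Atf3), 1 in 1 fit of all arrays (Atf3), 4 with a term for high Xist, and 1 to 4 with single arrays left out. For ABA against control diet, 0 members were called in each comparison: with LPS in wild-type mice 1 with the mean of all probe sets (Canx) and 1 with array weights (Atf3); without LPS in wild-type mice 1 within the 12-array experiment (Derl3); with LPS in null mice 1 with array weights (Syvn1) and 1 in 1 fit of all arrays (Ern1); without LPS in null mice 1 in 1 fit of all arrays (Dnajb11). The count of ATF4-responsive genes that rose was recomputed after it had been seen. It was 11 in wild-type mice, 8 to 12 with single arrays left out and 1 within the 16-array experiment. In wild-type mice of that experiment it was 5, with 3 without a filter, 3 with array weights, 1 without arrays with pancreatic transcripts, and 1 to 5 with single arrays left out. It was 11 in the 1 fit of all arrays, which pooled the wild-type arrays of both experiments. In null mice it was 2, with 1 without a filter, with the mean of all probe sets, with array weights, with the replicate block, with a term for high Xist and without arrays with pancreatic transcripts, and 1 to 3 with single arrays left out. The causes were not tested.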
